A study of Schizosaccharomyces pombe with 6 samples.

Results

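Fission yeast (Schizosaccharomyces pombe) overexpressing Spc1 was compared with fission yeast carrying the empty vector, on 4 of the 6 arrays of the series. Spc1 is the product of the gene sty1. The members were the arrays with the transfection label Spc1, 2 of them, and the arrays labelled empty vector, also 2, each described as a biological replicate. The source of the empty-vector cells was labelled as a wild strain, both groups are labelled as transfected, and the labels give neither the promoter that drives Spc1 nor the medium. The remaining 2 arrays, from cells overexpressing the form Spc1K49R, entered only the shared estimate of the spread. With 2 arrays in a group, their number limits the precision of every value, and where the cultures were not separate the p-values measure only technical spread.

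Spc1, also called Sty1, is the stress-activated MAP kinase of fission yeast. It is switched on by the MAP kinase kinase Wis1 after osmotic, oxidative or nutritional stress, and switched off by the tyrosine phosphatases Pyp1 and Pyp2. Its best known target is the transcription factor Atf1, through which it controls stress genes, mating and entry into meiosis.

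Both S. pombe and the budding yeast S. cerevisiae are represented on the array, and 8960 probe sets were tested after 173 control probe sets were set aside. Each value appears to be a log2 signal minus that probe set's median over the 6 arrays. Such values give differences among arrays and no levels. Only probe sets in the authors' deposited tables of differences had a name, and 76 of those were of S. pombe. Of these, 23 stood in the deposited table that corresponds to Spc1 against empty vector, and the study had chosen them on the same arrays. The other 53 came from the tables that involve Spc1K49R, which share the Spc1 or the empty-vector arrays. Counts over the named genes therefore describe the study's selection and give no independent support for a direction.

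The overexpressed gene was read first. On the empty-vector arrays sty1 stood at -1.07 and -1.04, and on the Spc1 arrays at 1.04 and 1.49. Both Spc1 arrays lay far above both empty-vector arrays, with a gap of 2.077 log2 units between the nearest pair. Among all 8960 probe sets this was the widest gap between the groups, and the next was 0.65, for mug124. The mean was 1.26 ± 0.32 (SD, n = 2) with Spc1 and -1.06 ± 0.02 (SD, n = 2) with empty vector. The log2 difference of 2.32 (SE 0.83) had a limma p of 0.0383 before and 0.79 after adjustment, and so did not pass the threshold of 0.05. The Spc1K49R arrays stood far apart, at 1.20 and -1.37, so the array labelled Spc1K49R replicate 2 did not show the raised sty1 signal of the other 3 arrays with an overexpressed form. This pair enters the shared standard error of the gene. With the 4 arrays of Spc1 and empty vector alone, limma gave sty1 a p of 0.000584 before and 0.951 after adjustment. The authors' deposited table lists sty1 as 5.39-fold higher. Of the 20 genes in the list for the Spc1 pathway, sty1 was the only one with a named probe set, so wis1, atf1, pyp1 and pyp2 were not analysed here.

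Signals of control probe sets were not the same on all arrays. In 6 S. pombe control genes with probe sets at both ends, the 5' value minus the 3' value averaged -1.53 for Spc1 replicate 1 and -0.10 for its partner. It was -0.56 and 0.40 on the empty-vector arrays, so Spc1 replicate 2 lay between them and Spc1 replicate 1 below both. For the actin gene the 5' probe set read -2.66 on Spc1 replicate 1, -0.18 on Spc1 replicate 2, and -0.60 and 0.67 with empty vector. The ends of the control gene SRB4 went the other way on Spc1 replicate 1, with -0.004 at the 5' end and -0.32 at the 3' end. Its middle probe set was low there, at -2.50, with 0.08 on Spc1 replicate 2, and -0.38 and -0.04 with empty vector. The difference of single probe sets from the empty-vector mean had an SD of 0.802 for Spc1 replicate 1 and 0.229 for Spc1 replicate 2. Spiked-in poly-A controls also stood highest on Spc1 replicate 1. So did the hybridization controls, with a median of 3.15 there, 0.16 on Spc1 replicate 2, and 0.54 and -0.38 with empty vector. The part of RNA state, of the other control signals and of this array in the differences below was not tested. The value without Spc1 replicate 1, that of Spc1 replicate 2 alone, is therefore given where it matters. Fewer cells and less RNA per cell cannot be told apart on such arrays.

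**Figure D1:**
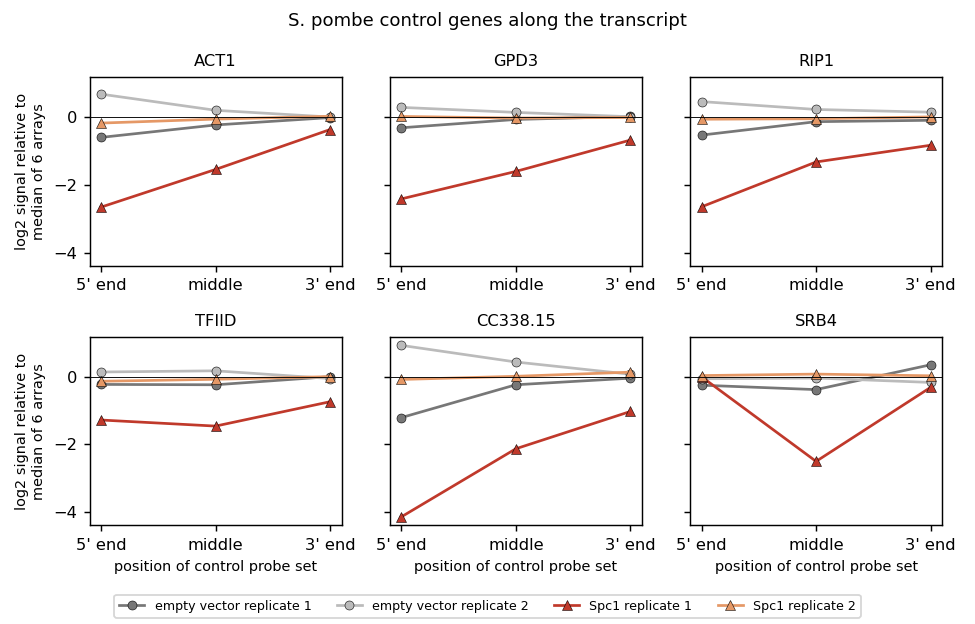
Log2 signal relative to the median of the 6 arrays (vertical axis) at the 5' end, middle and 3' end of 6 S. pombe control genes (horizontal axis), one line for each Spc1 and empty-vector array. On Spc1 replicate 1 the actin gene (ACT1) climbs from -2.66 at the 5' end to -0.37 at the 3' end, while at its 5' end the other 3 arrays lie between -0.60 and 0.67.

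Over all probe sets the mean difference between the groups followed Spc1 replicate 1. A difference of 1 or more log2 units was reached by 355 of 8960 probe sets (3.96%), 35 of them higher (0.391%) and 320 lower (3.57%) with Spc1. Spc1 replicate 2 lay at least 1 unit from the empty-vector mean on the same side in 20 of these 355, at least 0.5 units in 37, and on the opposite side in 167. Taken singly, Spc1 replicate 1 was at least 1 unit above the empty-vector mean for 280 probe sets and below it for 1247. For Spc1 replicate 2 these counts were 13 and 38. In the limma fit, 0 of 8960 (0%) passed an adjusted p of 0.05. Without Spc1 replicate 2, so with Spc1 replicate 1 alone against empty vector, 2968 passed. In that fit the spread comes only from the empty-vector and Spc1K49R arrays, the lone Spc1 array is assumed to vary like them, and the count does not allow for the spread between Spc1 cultures. An unadjusted p under 0.05 was reached by 108 (1.21%), higher with Spc1 in 45 (0.502%) and lower in 63 (0.703%). With all 6 arrays in the fit, no gene below passed the test, and its values are given as measured.

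**Figure D2:**
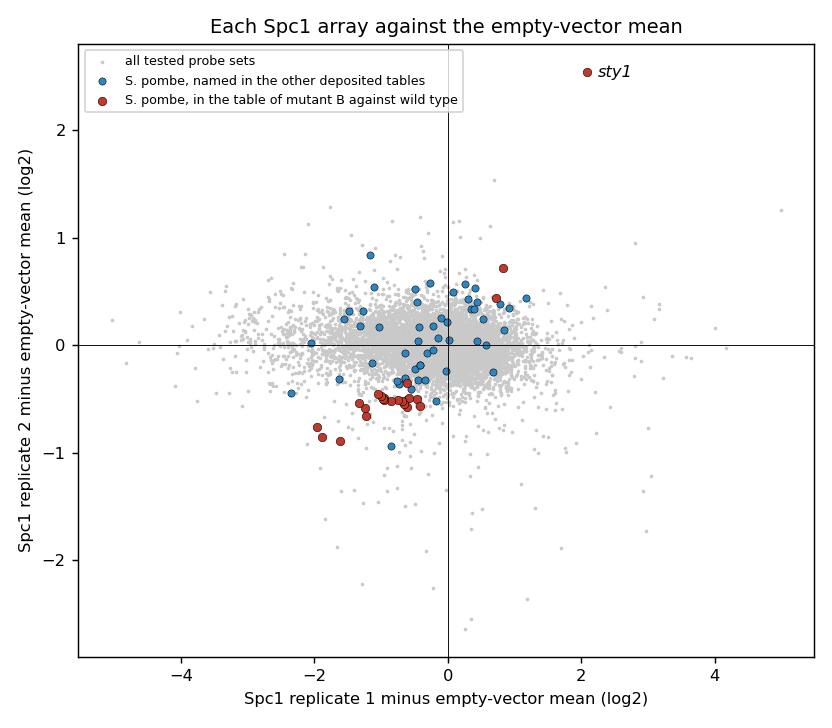
Difference from the empty-vector mean on Spc1 replicate 1 (horizontal axis, log2) and on Spc1 replicate 2 (vertical axis, log2), one point for each of 8960 probe sets, with named S. pombe probe sets in colour. The cloud is wider along replicate 1 (SD 0.802) than along replicate 2 (SD 0.229), and sty1 stands apart at 2.09 and 2.54.

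Both Spc1 arrays lay above both empty-vector arrays for 945 probe sets and below them for 1288, together 24.9% of those tested. A gap of at least 0.25 log2 units between the groups was seen in 152 probe sets (1.7%), 60 higher (0.67%) and 92 lower (1.03%). All 23 S. pombe probe sets of the deposited table had such a gap, 20 lower and 3 higher, but the study had selected them on these arrays. The 20 lower ones had a median difference of -0.73, made up of -0.95 for Spc1 replicate 1 and -0.52 for Spc1 replicate 2. The median over all tested probe sets was -0.05, made up of -0.09 and -0.00. Spc1 replicate 1 was the lower of the Spc1 arrays in 18 of the 20, the exceptions being nce103 and pth2. The log2 differences in the authors' deposited table differed from those given here by a median of 0.0491.

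**Figure D3:**
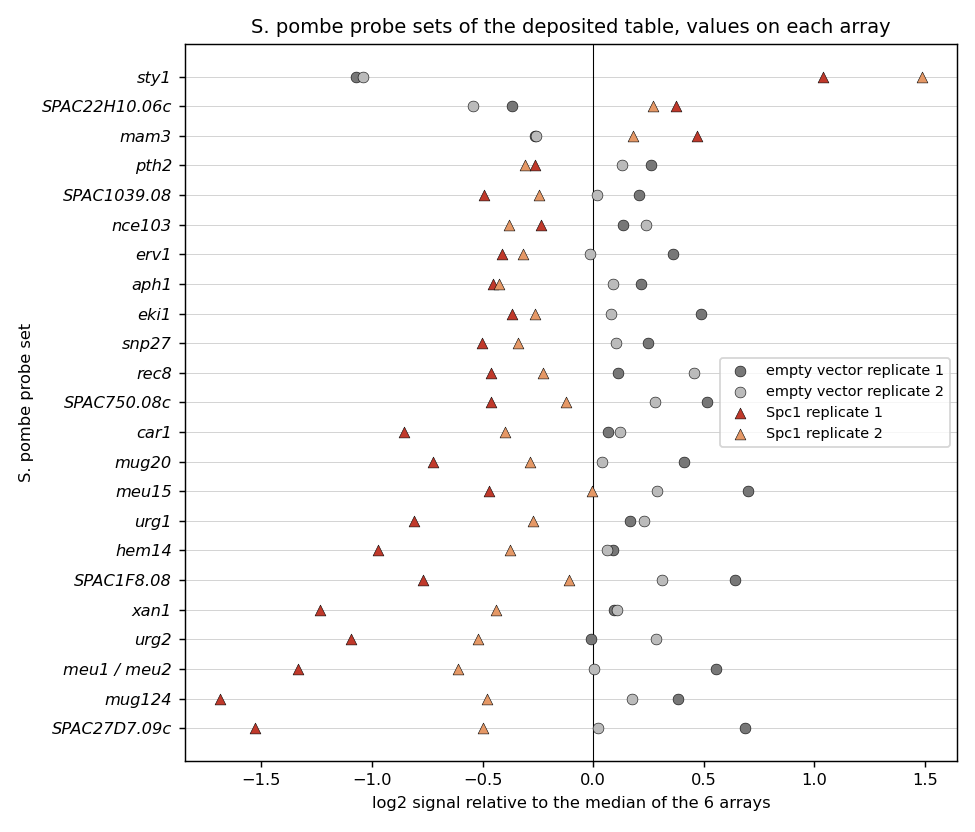
Log2 signal relative to the median of the 6 arrays (horizontal axis) for the 23 S. pombe probe sets of the deposited table (vertical axis), with circles for empty-vector arrays and triangles for Spc1 arrays. Circles and triangles do not overlap in any row, 20 rows have the triangles on the left, and sty1 shows the widest gap, 2.077.

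The named genes for the use of uracil, nitrogen compounds and amino acids were lower with Spc1. Of the 15 genes in this list 7 had a name, and in all 7 the Spc1 pair lay wholly below the empty-vector pair, against 14.4% of all tested probe sets. Of the 7, 5 came from the deposited table of this comparison, where the study had selected them on these arrays for a difference. The others, dao1 and arg7, came from the tables with Spc1K49R, which share the Spc1 or the empty-vector arrays. The count of 7 therefore follows the selection and gives no independent support for a direction. The median difference of the 7 was -0.59, with -0.64 for Spc1 replicate 1 and -0.47 for Spc1 replicate 2. None passed with limma, and 6 had an unadjusted p under 0.05, against 1.21% of all tested probe sets, a count that follows the same selection.

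The uracil-regulated genes urg1 and urg2 are neighbours, with urg3 the only protein-coding gene between them in the gene table used for names. The product of urg2 is a predicted uracil phosphoribosyltransferase, an enzyme of pyrimidine salvage, and that of urg1 a predicted GTP cyclohydrolase. For urg2 the empty-vector values were -0.01 and 0.29 and the Spc1 values -1.09 and -0.52. For urg1 they were 0.16 and 0.23 against -0.81 and -0.27. The groups did not overlap for either gene, and Spc1 replicate 1 was the lower Spc1 array for both. The difference was -0.94 (SE 0.24) for urg2 and -0.74 (SE 0.22) for urg1 with all 4 arrays, and -0.66 and -0.47 with Spc1 replicate 2 alone. The urg3 probe set had no name and was not analysed here.

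Arginine and other amino acids showed the same order of arrays. The arginase gene car1, whose product opens arginine breakdown, stood at 0.07 and 0.12 (empty vector) against -0.85 and -0.40 (Spc1). The D-amino acid oxidase gene dao1 stood at 0.08 and 0.04 (empty vector) against -0.49 and -0.34 (Spc1). For both genes the empty-vector arrays nearly coincided and both Spc1 arrays were lower. The difference was -0.72 (SE 0.21) for car1 and -0.48 (SE 0.14) for dao1, or -0.49 and -0.40 with Spc1 replicate 2 alone. The predicted serine acetyltransferase gene SPAC1039.08 stood at 0.21 and 0.02 against -0.50 and -0.24, a difference of -0.48 (SE 0.17). For arg7, the argininosuccinate lyase gene of arginine synthesis, the gap was 0.04, since Spc1 replicate 2 at 0.06 lay just below the empty-vector values of 0.17 and 0.11. Spc1 replicate 1, at -0.51, set most of its difference of -0.36, which was -0.07 without that array.

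The last member, aph1, does not do what the name of the list says: it encodes a hydrolase of diadenosine tetraphosphate, a nucleotide. It stood at 0.22 and 0.09 (empty vector) against -0.45 and -0.42 (Spc1), a difference of -0.59 (SE 0.13). Its unadjusted p of 0.00683 with limma was the second smallest of all probe sets, and the difference ranged from -0.66 to -0.53 when any array was left out. The gene xan1, in no list, is named as a predicted sulfonate dioxygenase in the deposited table and is known as the xanthine dioxygenase gene of purine use. It stood at 0.09 and 0.11 (empty vector) against -1.23 and -0.44 (Spc1), a difference of -0.94 (SE 0.37), or -0.54 with Spc1 replicate 2 alone. On both genes the groups did not overlap.

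Genes known from meiosis went both ways. The 17 genes in the meiosis and sporulation list had 3 named probe sets, and in 2 of these the Spc1 pair lay wholly below. By the deposited annotation 9 named probe sets belonged to meiosis or sporulation, of which 5 lay below, 1 (mei2) above and 3 overlapped, where 14.4% of all tested probe sets lay below and 10.5% above. The 5 that lay below came from the deposited table of this comparison, where the study had selected them on these arrays. The study had selected mei2 as higher with Spc1K49R than on the same empty-vector arrays. These counts therefore follow the selection. The difference was below 0 in 5 of the 9 and above 0 in 4, and none passed. The median difference of the 9 was -0.63, with -0.74 for Spc1 replicate 1 and -0.50 for Spc1 replicate 2.

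The probe set shared by meu1 and meu2, transcripts named for their rise in meiosis, stood at 0.55 and 0.00 (empty vector) against -1.33 and -0.61 (Spc1). The difference of -1.25 (SE 0.32) had the third smallest p of all probe sets with limma, 0.0112 unadjusted, and was -0.89 with Spc1 replicate 2 alone. The sequence orphan mug124 stood at 0.38 and 0.17 against -1.69 and -0.48, a difference of -1.36 (SE 0.41), or -0.76 with Spc1 replicate 2 alone. On Spc1 replicate 1 both probe sets were far below the other 3 arrays, and on Spc1 replicate 2 they were still below both empty-vector arrays, with gaps of 0.61 and 0.65. For meu15 the values were 0.70 and 0.29 (empty vector) against -0.47 and -0.00 (Spc1), a difference of -0.73 (SE 0.23). For mug20, a gene of the meiotic linear elements, they were 0.41 and 0.04 against -0.73 and -0.28, also a difference of -0.73 (SE 0.23). The meiotic cohesin gene rec8 stood at 0.11 and 0.46 (empty vector) against -0.46 and -0.23 (Spc1), a difference of -0.63 (SE 0.25). In these 3 genes both Spc1 arrays were below the lower empty-vector array, by 0.29 for meu15, 0.33 for mug20 and 0.34 for rec8.

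Other meiotic genes had mean differences above 0. For spo6, which encodes the regulatory subunit of the Spo4 kinase of the second meiotic division, the empty-vector arrays stood at 0.59 and -0.46 and the Spc1 arrays at 0.60 and 0.31. The groups overlapped, and the difference of 0.39 (SE 0.37) was smaller than the distance between the empty-vector arrays and ran from -0.14 to 0.92 when any array was left out. The other two that overlapped, mug131 and mug62, are named after their values were seen, and their direction depended on the array. For mug131 the empty-vector values were 0.99 and -0.60 and the Spc1 values 0.19 and 0.41. For mug62 they were -0.01 and 0.04 against 0.59 and 0.01. The copper-regulatory factor gene cuf2, which acts in meiosis, had 0.35 and -0.53 (empty vector) against 1.09 and 0.35 (Spc1), a gap of 0.0052 and a difference of 0.81 (SE 0.38). It was 0.37 without empty vector replicate 2 and 1.25 without empty vector replicate 1.

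Listed genes of mating and the pheromone response were higher with Spc1 or overlapped. Of the 26 genes in this list 7 had a name, through 8 probe sets. Both Spc1 arrays lay above both empty-vector arrays for 4 of the 8, against 10.5% of all tested probe sets, and the groups overlapped for the other 4. The median difference of the 8 was 0.25, with 0.14 for Spc1 replicate 1 and 0.30 for Spc1 replicate 2. None passed with limma and 1, mam3, had an unadjusted p under 0.05, against 1.21% of all tested probe sets. All but mam3 were named only because of the comparisons with Spc1K49R, and mam3 was also selected for this comparison on these arrays. The study had selected all 8 as higher with Spc1K49R than on these same empty-vector arrays. The count of 4 therefore follows that selection in part and gives no independent support for a direction.

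The agglutination gene mam3, whose product lets mating cells adhere, stood at -0.27 and -0.26 (empty vector) against 0.47 and 0.18 (Spc1), a difference of 0.59 (SE 0.16). For mam2, the receptor gene for the pheromone P-factor, the values were -0.26 and -0.43 against 0.57 and -0.00, a difference of 0.63 (SE 0.26), or 0.34 with Spc1 replicate 2 alone. Both genes were higher on each Spc1 array than on either empty-vector array. The M-factor precursor gene mfm3 stood at -0.13 and -0.30 against 0.63 and -0.07, a difference of 0.49 (SE 0.26) that was 0.14 with Spc1 replicate 2 alone. For mei2, the RNA-binding protein that starts meiosis, the values were -0.58 and -0.19 against -0.12 and 0.19, a difference of 0.42 (SE 0.20) that was 0.22 without empty vector replicate 1. The gap between the groups was 0.06 in mfm3 and 0.07 in mei2.

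The other members of this list did not separate. The 2 probe sets of mfm1, another M-factor precursor gene and a close copy of mfm3, differed by 0.04 and -0.04, and signal can be shared between such copies. The regulator of G-protein signalling rgs1 had -0.16 and -0.25 with empty vector, and its Spc1 arrays lay on either side, at -0.67 and 0.20. The pheromone MAP kinase gene spk1 had -0.10 and -0.11 (empty vector) against -0.21 and 0.15 (Spc1). For rgs1 and spk1 the direction thus depended on which Spc1 array was read, with -0.46 and 0.41 for rgs1 and -0.11 and 0.26 for spk1. In no list was the probe set shared by the mating-type genes matmi_1 and matmi_2, named after its values were seen. It stood at 1.88 and -0.52 (empty vector) against -0.17 and -0.25 (Spc1). Its groups overlapped, and its difference was -0.89 (SE 0.77).

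**Figure D4:**
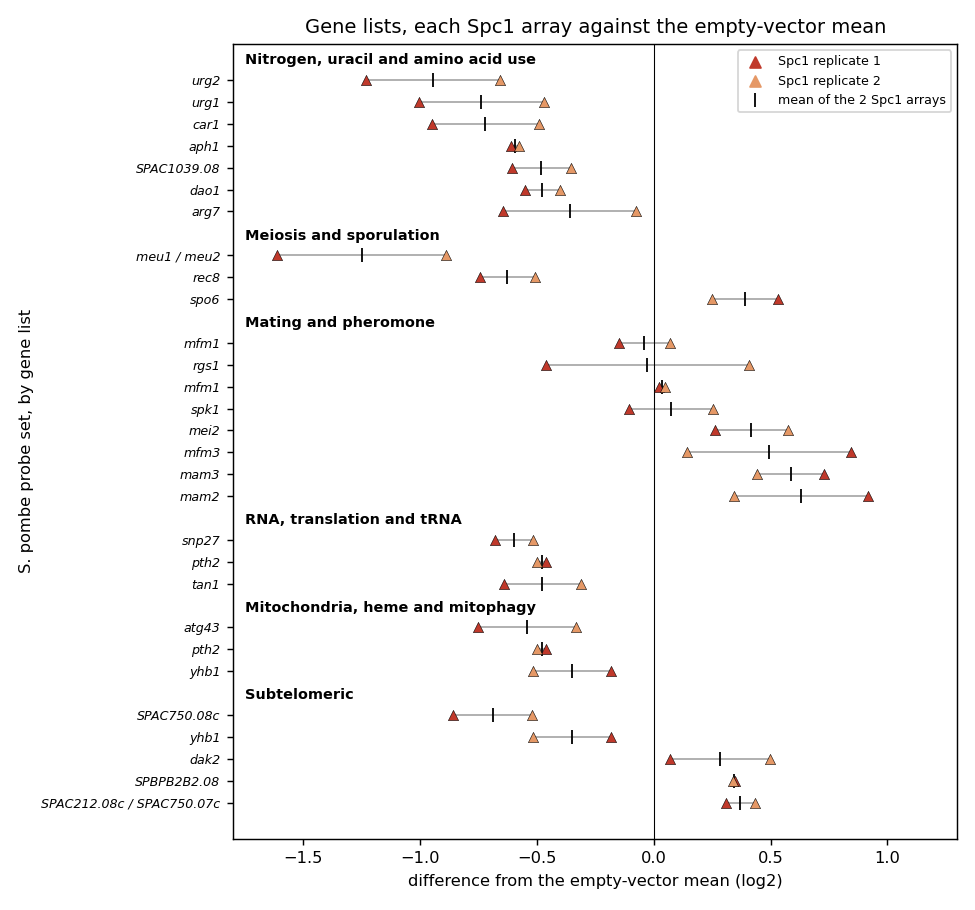
Difference of each Spc1 array from the empty-vector mean (horizontal axis, log2) for the named S. pombe probe sets of 6 gene lists (vertical axis), with a tick at the mean of the 2 Spc1 arrays. All 7 probe sets for uracil, nitrogen and amino acid use lie left of 0 on both arrays, while 4 of the 8 mating probe sets lie on the right with groups that do not overlap.

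Genes of mitochondria and heme were lower where their groups separated. Of the 9 genes in the list for mitochondria 3 had a name, atg43 and pth2 with both Spc1 arrays lower, as in 14.4% of all tested probe sets, and yhb1 with groups that overlapped. The study had selected pth2 on these arrays for this comparison, and atg43 as lower with Spc1 than with Spc1K49R, so the count follows the selection. The mitophagy receptor gene atg43 stood at -0.11 and 0.11 (empty vector) against -0.75 and -0.33 (Spc1). The difference was -0.54 (SE 0.21), or -0.33 with Spc1 replicate 2 alone. For the nitric oxide dioxygenase gene yhb1 the empty-vector values of 0.65 and 0.13 enclosed the Spc1 value of 0.21, and the other Spc1 array read -0.13. Its difference was -0.35 (SE 0.24), or -0.09 without empty vector replicate 1.

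Further mitochondrial genes stood in no list. The gene hem14, for protoporphyrinogen oxidase of heme synthesis, stood at 0.09 and 0.06 (empty vector) against -0.97 and -0.38 (Spc1). Its difference of -0.75 (SE 0.24) was -0.45 with Spc1 replicate 2 alone. The sulfhydryl oxidase gene erv1, needed for protein import into the space between the mitochondrial membranes, stood at 0.36 and -0.01 against -0.41 and -0.31. Its difference of -0.54 (SE 0.18) was -0.35 without empty vector replicate 1. In both genes the groups did not overlap. For gta2, a subunit gene of the mitochondrial glutamyl-tRNA amidotransferase, Spc1 replicate 2 at 0.07 was close to the empty-vector values of 0.33 and 0.14. Its difference of -0.65 (SE 0.34) came mostly from Spc1 replicate 1 at -0.91 and was -0.17 without that array. The groups overlapped for cmc1, a gene of cytochrome oxidase assembly named after its values were seen, with -0.44 and 0.03 for the Spc1 arrays against the empty-vector mean.

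Of the 7 genes in the list for RNA, translation and tRNA, 3 had a name, and all 3 were lower on both Spc1 arrays, as were 14.4% of all tested probe sets. The study had selected snp27 and pth2 on these arrays for this comparison, and tan1 as lower with Spc1 than with Spc1K49R. The count of 3 therefore follows the selection, and pth2 is also counted in the list for mitochondria. None passed with limma. For snp27, a subunit gene of the spliceosomal tri-snRNP, the values were 0.25 and 0.10 (empty vector) against -0.50 and -0.34 (Spc1), a difference of -0.60 (SE 0.16). For pth2, a predicted aminoacyl-tRNA hydrolase gene, they were 0.26 and 0.13 against -0.27 and -0.31, a difference of -0.48 (SE 0.14). In both genes the Spc1 arrays were close to each other, and their SDs were 0.115 and 0.0294. The tRNA acetyltransferase gene tan1 stood at -0.12 and 0.16 against -0.62 and -0.29, a difference of -0.48 (SE 0.19), or -0.31 with Spc1 replicate 2 alone. By contrast sap49, which encodes a splicing factor subunit, read 0.31 and 0.20 on the empty-vector arrays, -2.09 on Spc1 replicate 1 and -0.19 on Spc1 replicate 2. Its difference of -1.40 (SE 0.62) was -0.45 without Spc1 replicate 1. The predicted exoribonuclease gene rex4 differed by -0.47 (SE 0.17) and the cap-binding subunit gene cbc2 by -0.38 (SE 0.21), and neither had overlapping groups. For rex4 the difference was -0.30 with Spc1 replicate 2 alone, and for cbc2 it was -0.14 without empty vector replicate 1. SPBC365.04c, a predicted RNA-binding protein gene of ribosome biogenesis, differed by -0.55 (SE 0.23), or -0.31 without empty vector replicate 1. In other named RNA genes the groups overlapped: these, named after their values were seen, were the 3' end processing gene pfs2 and the methyltransferase gene trm140. On the Spc1 arrays pfs2 differed from the empty-vector mean by -0.49 and 0.53, and trm140 by -0.31 and -0.07.

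Few named genes bear on stress, the field in which this kinase is best known. Of the 14 genes in the core stress list only the flavin oxidoreductase gene SPBC23G7.10c had a name, with 0.27 and 0.06 on the empty-vector arrays and -0.06 and 0.12 on the Spc1 arrays. Its groups overlapped, and its difference was -0.13 (SE 0.15), or -0.03 without empty vector replicate 1. By the deposited annotation 6 named probe sets belonged to the cellular response to stress, of which 4 were lower on both Spc1 arrays, against 14.4% of all tested probe sets, and 2 overlapped. Those that overlapped were SPBC23G7.10c and the G protein gamma subunit gene git11, named after its values were seen, with -1.65 and 0.15 on the Spc1 arrays. The lower ones were SPAC27D7.09c, atg43, nce103 and SPAC11D3.09. All of these had been selected by the study with the Spc1 or the empty-vector arrays, so their count follows the selection. The largest difference among them was that of SPAC27D7.09c, a But2 family gene, at 0.68 and 0.02 (empty vector) against -1.53 and -0.50 (Spc1). It came to -1.37 (SE 0.42) with all 4 arrays and to -0.85 with Spc1 replicate 2 alone. The carbonic anhydrase gene nce103 stood at 0.13 and 0.24 against -0.23 and -0.38, a difference of -0.49 (SE 0.16), and here Spc1 replicate 2 was the lower array. The predicted agmatinase gene SPAC11D3.09 stood at 0.45 and 0.20 against -0.01 and 0.01, a difference of -0.33 (SE 0.15), or -0.20 without empty vector replicate 1.

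Of the 16 genes in the list for mitotic entry, spindle and cytoskeleton, nif1 and for3 had a name, 1 with both Spc1 arrays lower, against 14.4% of all tested probe sets, and 1 with groups that overlapped. Other genes described with them stood in no list. The kinase gene gsk3 read -1.38 and -0.06 with Spc1 against 0.28 and 0.22, so its difference of -0.98 (SE 0.44) was -0.32 without Spc1 replicate 1. For nif1, an inhibitor gene of the mitotic kinase Cdr1, the values were 0.12 and -0.07 against -0.46 and -0.20, a difference of -0.36 (SE 0.17), or -0.23 with Spc1 replicate 2 alone. The formin gene for3 went opposite ways on the Spc1 arrays, at -1.62 and 0.38, with -0.76 and -0.15 on the empty-vector arrays. The groups also overlapped for the DASH complex subunit gene dad3, named after its values were seen. It stood at -0.23 and 0.06 (empty vector) against -2.13 and -0.06 (Spc1), a difference of -1.01 (SE 0.67) that came from Spc1 replicate 1. The kinesin gene klp8 was higher on both Spc1 arrays, at 0.30 and 0.42 against -0.25 and 0.02, a difference of 0.47 (SE 0.21). The SCF ubiquitin ligase gene skp1 and the DNA polymerase zeta gene rev7 each differed by -0.30, with SEs of 0.16 and 0.15, and their arrays did not overlap. With Spc1 replicate 2 alone both differed by -0.19.

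The subtelomeric list had 10 genes and 5 named probe sets, of which 1 was lower, 2 were higher and 2 overlapped, where 14.4% of all tested probe sets were lower and 10.5% higher. SPAC750.08c is a malic enzyme gene whose probe set also carries the identifier of SPAC212.09c, so the signal may come from either. It stood at 0.52 and 0.28 against -0.46 and -0.12, a difference of -0.69 (SE 0.19). The dihydroxyacetone kinase gene dak2 stood at -0.25 and -0.16 against -0.14 and 0.29, a difference of 0.28 (SE 0.19) that was 0.07 without Spc1 replicate 2. The probe set shared by SPAC212.08c and SPAC750.07c differed by 0.37 (SE 0.19), or 0.16 without empty vector replicate 2.

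Several further genes in no list separated the groups. The smallest p of all probe sets with limma, 0.00323 unadjusted, belonged to SPAC22H10.06c, an open reading frame annotated as dubious. It stood at -0.37 and -0.54 (empty vector) against 0.38 and 0.27 (Spc1), a difference of 0.78 (SE 0.15) with a range of 0.69 to 0.86 when any array was left out. Of the other genes in the deposited table, the predicted choline kinase gene eki1 differed by -0.60 (SE 0.21) and the sequence orphan SPAC1F8.08 by -0.91 (SE 0.27). The value of eki1 was -0.39 without empty vector replicate 1, and that of SPAC1F8.08 was -0.58 with Spc1 replicate 2 alone. The metallopeptidase gene sdd3 differed by 0.37 (SE 0.17), or 0.21 without empty vector replicate 2, and the sequence orphan hap2 by -0.55 (SE 0.25), or -0.21 without empty vector replicate 1.

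Among the 53 named S. pombe probe sets that the deposited table of this comparison does not hold, the picture was mixed. Both Spc1 arrays were lower in 15, higher in 8 and overlapping with empty vector in 30, where 14.4% of all tested probe sets were lower and 10.5% higher. All 53 were selected with the Spc1 or the empty-vector arrays, so these counts follow the selection too. Of the 22 found only in the comparison of Spc1 with Spc1K49R, 10 were lower and 3 higher. Of the 29 found only in that of Spc1K49R with empty vector, 5 were lower and 5 higher. The Spc1 arrays lay on opposite sides of the empty-vector mean in 19 of the 53, and in 4735 of all 8960 tested probe sets. The median difference of the 53 was -0.42 on Spc1 replicate 1 and 0.07 on Spc1 replicate 2. The 7 S. cerevisiae probe sets of the deposited table, which are designed for another species, were likewise selected by the study on these arrays. Both Spc1 arrays were above both empty-vector arrays in 5 of them and below in 2, where 24.9% of all tested probe sets did not overlap, and their differences ran from -0.49 to 0.43.

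On the Spc1K49R arrays, whose own comparison uses the same empty-vector arrays, several of these genes had the following values. The value of urg2 was 0.17 and 0.01, that of car1 0.15 and -0.07, and that of aph1 0.01 and -0.01. For mam3 it was -0.01 and 0.01, and for meu1 and meu2 -0.00 and 0.19. These are values side by side, and the difference between the forms of the kinase was not tested here. Arrays between the Spc1 and the empty-vector pair fall near 0 by the centring, so such values do not show that Spc1K49R had no effect. The probe sets of urg2, car1, aph1, meu1 and meu2 were also selected for a difference between Spc1 and Spc1K49R. That of mam3 was also selected as higher with Spc1K49R than with empty vector, by 0.29 log2 units in the authors' deposited table. Other genes had an Spc1K49R array further from 0, as xan1 at 0.69 and -0.09 and rec8 at -0.11 and 0.41. Spc1K49R replicate 2 also lacked the raised sty1 signal, at -1.37.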

How the data were processed

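RNA of 6 fission yeast cultures was measured on Affymetrix yeast arrays. The authors deposited a table of 9133 probe sets whose values fit log2 signals, centred per probe set on the median of the 6 arrays. The log base is not stated in the sources used here and was taken from its match to the log2 fold changes in the authors' deposited tables. Per the file headers, the 3 deposited tables of comparisons kept probe sets between the 10th and the 100th percentile of raw signal and used a moderated test at 0.05 with no correction for multiple testing. Those deposited tables also give an unadjusted p-value and a fold change per probe set. Their groups are called mutant B, mutant C and wild type, and mutant B was taken as Spc1 and wild type as empty vector because the fold changes match. The 6 columns of group means in these tables were not used.

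Groups came from the transfection label. The limma package 3.58.1 under R 4.3.3 fitted, by lmFit and a two-sided eBayes test, a mean per group over all 6 arrays with 3 residual degrees of freedom. Adjustment followed Benjamini and Hochberg and covered 8960 probe sets, without 173 controls. The fit was tested on simulated data. An exact permutation test of 2 arrays against 2 cannot go below 0.333 and was not used. Arrays were called apart when both arrays of one group lay above both of the other.

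Names came from the deposited tables. Of the 76 S. pombe probe sets, 75 matched the RefSeq gene table of assembly ASM294v3, and rev7 kept the name in the file. The text names sty1, the S. pombe probe sets of the table of mutant B against wild type, and other named ones by gene list, by a place among the 12 smallest p, or by arrays that were apart. The comparison, the 9 lists and the tests were chosen with earlier results of these data known. Alternatives tried were array centring, robust variances, array weights, the 4 arrays alone, the replicate number as a block, leaving out each array, keeping controls, a looser threshold of 0.1, and 2 added later. Sequences and genome positions were not used here.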

Additional observations from a re-analysis of the deposited data

Results flagged for a closer look

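Control probe sets for poly-A RNA and for S. pombe 18S ribosomal RNA, outside the comparison, carried signal above the empty-vector arrays on both Spc1 arrays. The median of the 39 poly-A control probe sets, which read RNA spiked into the sample, was 5.23 and 1.34 for Spc1 replicates 1 and 2, with 0.15 and -1.13 on the empty-vector arrays. The mean of the 3 control probe sets for S. pombe 18S ribosomal RNA was 0.73 and 0.27 for them, with -0.28 and -1.65 on the empty-vector arrays. For the 27 hybridization control probe sets the median was 3.15 and 0.16 on Spc1 replicates 1 and 2, with 0.54 and -0.38 on the empty-vector arrays. There Spc1 replicate 2 lay between the empty-vector arrays. All of these are log2 values relative to the median of the 6 arrays, and their part in the differences between the groups was not tested.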

How the results depend on the processing

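With 2 arrays a group, 1 array could decide most counts. The count of probe sets past an adjusted p of 0.05 with limma was 0 under every alternative run, including a threshold of 0.1, except without Spc1 replicate 2, so that leaving out 1 array in turn gave 0 to 2968, 916 of the 2968 higher. Where 1 array of a group is left, it is assumed to vary like the other groups. Unadjusted p under 0.05 held for 108 probe sets, a count that became 57 with array weights, 17 with the 4 arrays alone and 17 to 4066 when 1 array was left out. Of the named S. pombe probe sets, 23 had such a p, 10 with array weights, 14 with the 4 arrays alone and 10 to 48 when 1 array was left out. The median of the 23 probe sets of the deposited table, -0.69, ran from -0.86 to -0.51. The difference of sty1 ran from 2.09 to 2.54 and passed under no alternative. With the replicate number as a replicate block, the counts were 0, 103 and 25, and sty1 had a difference of 2.32 with an adjusted p of 0.769 with limma. The same-numbered arrays deviated together with correlations of 0.0657 to 0.473 over the 3 pairs of groups, so the numbers were not treated as pairing. For 54 single-gene results over 14 settings, 711 of 756 values kept their sign and side of the threshold, 28 passed it, all without Spc1 replicate 2, and 17 changed sign. Leaving out 1 array gave -0.46 to 0.41 for rgs1, -1.16 to 0.84 for for3, -0.26 to 0.18 and -0.19 to 0.26 for the probe sets of mfm1, -0.11 to 0.26 for spk1, -0.14 to 0.92 for spo6 and -0.23 to 0.92 for SPBPB2B2.08. The remaining alternatives were chosen after seeing the data. With the gap of 5' and 3' values as a covariate, the unadjusted count was 207, rgs1 stood at 0.24, for3 at 0.68 and a probe set of mfm1 at 0.13. Without Spc1 replicate 1 and empty vector replicate 1, the counts were 862 and 38 and the median -0.44. There rgs1 stood at 0.45, for3 at 0.54, a probe set of mfm1 at -0.18 and SPBC23G7.10c at 0.061. The cause of these changes was not tested.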
